A study of Rattus norvegicus with 71 samples.

Results

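Gene expression changes common to deltamethrin and cypermethrin were measured in primary rat cortical cultures, with both insecticides pooled over the concentrations they shared. The libraries were chosen by the compound and the concentration in their titles, which gave 23 of the 71 libraries and 2 of the 6 compounds of the series. There were 9 libraries of cultures exposed to deltamethrin and 9 of cultures exposed to cypermethrin, each with 3 libraries at 1, 3 and 10 µM, and they were set against 3 libraries at 0 µM of deltamethrin and 2 at 0 µM of cypermethrin. All were cortical cells, plated at 150000 per well on microelectrode arrays, which record the firing of the network that forms as the neurons mature. Wells received vehicle or test compound from shortly after plating, with renewal at the medium changes, and polyA-selected RNA was taken on day in vitro (DIV) 12. The strain, the age of the donor animals and the vehicle were not given in the sources used here. Each library was a pool of 2 to 3 wells treated alike. The work was done on 2 separate cultures, but no label ties a library to its culture, so the spread behind the p-values may be partly technical.

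Pyrethroids are synthetic relatives of the pyrethrins of chrysanthemum flowers. They bind the voltage-gated sodium channel and slow its closing, so that each opening lets in sodium for longer and neurons fire repeatedly or, with prolonged depolarization, fall silent. Deltamethrin and cypermethrin both carry the alpha-cyano group that defines type II pyrethroids, which hold the channel open longest. They differ in the halogen of the vinyl group, bromine in deltamethrin and chlorine in cypermethrin, and deltamethrin is made as a single stereoisomer whereas cypermethrin is a mixture of isomers. A sustained change in firing is known to be followed in cortical neurons by immediate early genes, by slower activity-regulated genes such as neuropeptides and synaptic organizers, and by adjustment of channels and receptors, and these were the groups examined besides the channel genes themselves.

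The libraries held between 5.21 and 43.1 M total counts, with a median of 10.2 M. In the titles 8 of them carried the prefix GRC321 and 15 the prefix GRC327, called projects here. What the prefix stands for is not stated in the titles. The mitochondrial share of counts was 3.99% to 6.05% in GRC321 and 2.24% to 3.03% in GRC327. By the rule that chose the libraries, the fits carried a term for the project, apart from those within 1 project or said to be without it. No columns were identical, and the closest pair of libraries had r = 0.9945. Within GRC321 the first principal component (44.5% of the variance) placed the libraries labelled deltamethrin 10 µM replicate 1 and cypermethrin 0 µM replicate 1 together, with scores of -27.9 and -26.9, against 21.4 and 24.1 for cypermethrin 3 and 10 µM replicate 1. In GRC327, 3 cypermethrin libraries (replicate 2 at 1, 3 and 10 µM) carried consecutive sample numbers with no 0 µM library among them and lay apart on the second component. Several results that turn on these libraries are given with and without them, and the other values include them. Markers of neurons and astrocytes were abundant in every library, with Snap25 of the synaptic release machinery at 292 to 555 CPM (counts scaled to library totals corrected by the trimmed mean of M values, TMM) and Aqp4, the astrocyte water channel, at 689 to 1190 CPM, so the source labelled as cortical neurons also held glia. Of 16 microglial markers 3 passed the filter on low counts, of 7 erythroid markers none did, and the summed erythroid level was at most 0.528 CPM in exposed and 0.357 CPM in 0 µM libraries. As these are bulk libraries, fewer cells of a type and less RNA per cell cannot be told apart.

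Over all 3 concentrations no gene passed the test for a change common to both pyrethroids. Of 14357 genes tested, 0 (0%) passed an adjusted p of 0.05 in edgeR's quasi-likelihood test with Benjamini-Hochberg adjustment, and the smallest adjusted p was 0.815. At an unadjusted p under 0.05 there were 858 genes (5.98% of those tested), 395 with a higher and 463 with a lower fitted level in exposed cultures, where 5% of the genes would be 718. DESeq2 and limma on the deposited CPM called 0 genes as well. The median log2 fold change over all genes was -0.01. The 95% interval of the pooled fold change lay inside ±1 on the log2 scale for 92.7% of the genes and inside ±0.5 for 73.3%, and among the 9608 genes with an average above 3 log2 CPM these shares were 99.7% and 95%. The call count stayed at 0 when each of the 23 libraries was left out in turn, and within GRC327 alone and GRC321 alone.

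The genes with the smallest p for pooled exposure are given as values, since none passed the test and all had an adjusted p of 0.815. Azin2 (chromosome 5, 147120129 to 147148292), an antizyme inhibitor that acts on polyamine uptake, had 1.97, 3.53 and 4.73 CPM as its lowest, median and highest values over the 18 exposed libraries, against 1.96, 1.66 and 2.94 CPM in deltamethrin 0 µM and 1.35 and 2.77 CPM in cypermethrin 0 µM libraries. Its pooled log2 fold change was 0.72 ± 0.18 (SE), with a 95% interval of 0.34 to 1.10, and the compounds gave 0.69 for deltamethrin and 0.76 for cypermethrin. Llgl1 (chromosome 10, 46940965 to 46954675), a cell polarity gene, varied little between libraries, with 34.9, 39.9 and 41.7 CPM in exposed libraries against 33.9, 33.9, 34.2, 31.3 and 37.5 CPM at 0 µM, and a fold change of 0.20 ± 0.05. The exposed and 0 µM ranges overlapped for both genes.

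Among the genes with lower fitted levels, Rras2 (chromosome 1, 178940516 to 179010258), a small GTPase of the Ras family, had 54.5, 69.7 and 88.3 CPM in exposed libraries, against 91.8, 85.5, 77.7, 127 and 74.1 CPM at 0 µM. Its log2 fold change was -0.33 ± 0.08, and the single highest value, 127 CPM, was the cypermethrin 0 µM library of GRC321 that lay apart. When each library was left out in turn the fold change of Rras2 ran from -0.377 to -0.235. Spred3 (chromosome 1, 88103719 to 88112684, overlapping the model of Zfp84), an inhibitor of Ras signalling, had a pooled log2 fold change of -0.40 ± 0.11, made up of -0.60 ± 0.13 for deltamethrin and -0.12 ± 0.15 for cypermethrin. Plch1 (chromosome 2, 154256380 to 154418921), a phospholipase C, had -0.39 ± 0.10. Ntan1 (chromosome 10, 3218466 to 3235230, overlapping Pdxdc1), which acts in the N-end rule of protein turnover, had -0.35 ± 0.09. The highly expressed Tpt1 (chromosome 15, 57891680 to 57894505), encoding the translationally controlled tumour protein, had -0.23 ± 0.06. It also showed how far the projects lay apart, with 393 to 458 CPM in exposed GRC321 libraries and 99.2 to 126 CPM in exposed GRC327 libraries. The pseudogene AABR07045322.1 had -0.36 ± 0.10, and Rgs8 is described with the 10 µM results. With all 16 libraries at 0 µM of the 6 compounds as controls, the pooled fold change was 0.30 for Azin2, -0.09 for Ntan1, -0.16 for AABR07045322.1, -0.21 for Rras2 and -0.14 for Tpt1. Without deltamethrin 0 µM replicate 1 that of Spred3 was -0.26, and without cypermethrin 0 µM replicate 1 that of Tpt1 was -0.15.

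**Figure D1:**
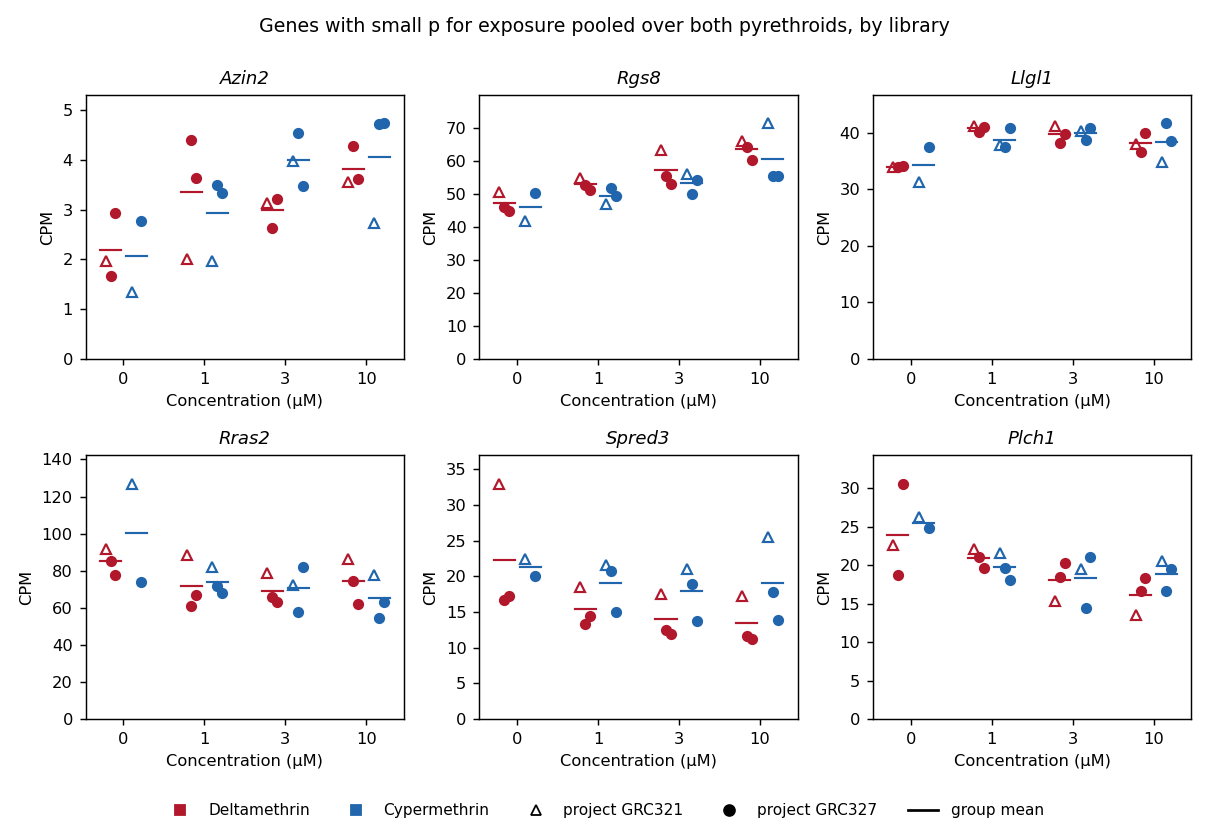
Level in CPM (linear axis from 0) of 6 of the 10 genes with the smallest p for pooled exposure, by concentration in µM, with 1 point per library, deltamethrin in red, cypermethrin in blue, open triangles for GRC321 and filled circles for GRC327, and bars at group means. Exposed values of Azin2 reach 4.73 CPM where none of the 0 µM libraries passes 2.94 CPM, while the groups overlap in all 6 panels.

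The RNAs of the channels that pyrethroids bind had pooled fold changes near 0. The voltage-gated sodium channel list held 18 genes, with beta subunits and intracellular partners such as Fgf12 beside the pore-forming subunits. Of the list, 16 genes passed the filter and none passed the test. The median pooled log2 fold change of the 16 was 0.07, against -0.01 over all genes. The main pore-forming subunits of cortical neurons had narrow intervals. Scn2a (chromosome 3, 51687809 to 51822251) lay at 860, 1070 and 1150 CPM (lowest, median, highest) in exposed libraries and at 1040, 1020, 1140, 1050 and 1020 CPM at 0 µM, a log2 fold change of 0.01 with an interval of -0.11 to 0.13. Scn8a had 164, 217 and 249 CPM against 161, 216, 235, 149 and 210 CPM, a fold change of 0.11 with an interval of -0.02 to 0.24. For Scn2a the unexposed range lay inside the exposed one, and for Scn8a the ranges overlapped. The intervals were -0.11 to 0.27 for Scn1a and -0.05 to 0.17 for Scn3a, so a change of 0.5 in either direction lay outside the interval for all 4 subunits.

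Of the 16 tested genes of the sodium channel list 3 had an unadjusted p under 0.05, all with an adjusted p of 0.815, beside 5.98% of all genes. Fgf12, an intracellular partner that modulates sodium channel inactivation, had a fold change of -0.24 ± 0.07. Its levels split by project, with 63.2 to 80.5 CPM in the exposed GRC321 libraries against 89.2 and 94.8 CPM at 0 µM, which did not overlap, and with 28.9 to 39.6 CPM in the exposed GRC327 libraries against 33.7 to 43.4 CPM at 0 µM, which did. Scn2b, a beta subunit, had 0.22 ± 0.10. Scn4a, the skeletal muscle channel, had 0.50 ± 0.26 without reaching an unadjusted p of 0.05.

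Voltage-gated calcium channels had a median of 0.09 over 22 tested members, of which 4 had an unadjusted p under 0.05, beside 5.98% of all genes, and none passed the test. The T-type pore subunits Cacna1g and Cacna1h, which open at low voltage and support burst firing, had 0.23 ± 0.07 and 0.20 ± 0.08. The AMPA receptor-associated gamma subunit Cacng5 had 0.34 ± 0.11, and the L-type subunit Cacna1c 0.14 ± 0.06. For Cacng5 the exposed libraries ran from 11.4 to 20 CPM with a median of 14.6, against 11.1, 12.5, 10.9, 12.5 and 10.6 CPM at 0 µM. Of the 18 exposed values 15 lay above every unexposed one, and the ranges overlapped through the other 3.

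Potassium channels, which repolarize the membrane, had a median of 0.04 over 48 tested members, 3 of them at an unadjusted p under 0.05, a share close to the 5.98% of all genes. Among these were Kcnn1 (0.50 ± 0.20), a calcium-activated channel, and Kcnc2 (0.25 ± 0.12), a channel of fast-spiking neurons. Genes of sodium and chloride transport, among them the sodium pump, had a median of 0.03 over 20 members, and the sodium-calcium exchanger Slc8a2, with the smallest p of the list, had a fold change of 0.14 ± 0.06.

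**Figure D2:**
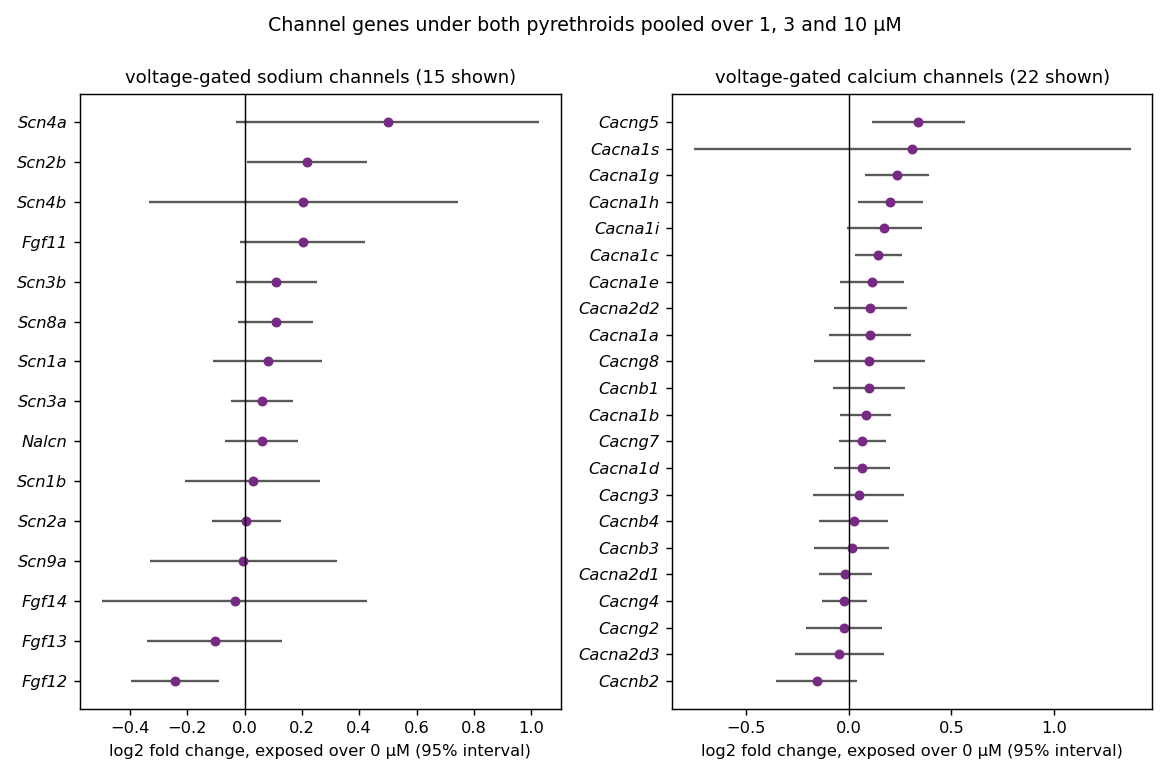
Pooled log2 fold change, exposed over 0 µM, with its 95% interval, 1 point per gene in order of value. Shown are 15 of the 16 tested genes of the sodium channel list and the 22 tested calcium channel genes. Scn2a, Scn3a, Scn8a and Scn1a sit between 0.01 and 0.11, with 0 inside the interval of each.

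Activity-regulated and synaptic genes were next. None of 24 immediate early genes passed the test for pooled exposure, and their median was 0.03. The transcription factor gene Fosb had 0.72 ± 0.31, with 0.748, 1.44 and 4.08 CPM in exposed libraries against 1.86, 0.888, 0.267, 1.13 and 1.52 CPM at 0 µM, and its groups overlapped. The nuclear receptor genes Nr4a2, Nr4a3 and Nr4a1 had -0.17, -0.13 and 0.14. Delayed activity genes, which follow firing over hours to days, had a median of 0.10 over 29 members. Acan, encoding the perineuronal net proteoglycan aggrecan, had 0.35 ± 0.13. The other members with an unadjusted p under 0.05 were Lingo3 (0.32) and the phosphatase genes Dusp1 (-0.28) and Dusp4 (0.20).

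Receptors and synaptic machinery lay near the median of all genes. AMPA and kainate receptor genes had a median of 0.06 over 13 members, NMDA receptor genes 0.12 over 7 and GABA-A receptor genes 0.01 over 14. Neto2, an auxiliary subunit of kainate receptors, had the smallest p of the first group, with -0.24 ± 0.08. Presynaptic vesicle genes had 0.06 over 25 members and postsynaptic scaffold genes 0.04 over 20. Examples were the vesicle protein gene Sv2c at 0.27, the synaptotagmin gene Syt4 at -0.25, Camk2a, the kinase of synaptic plasticity, at 0.20, and the scaffold gene Shank3 at 0.16. Neurofilament and cytoskeleton genes had -0.04 over 18 members, 5 of them at an unadjusted p under 0.05 beside 5.98% of all genes, among them Sptbn4, a spectrin of the axon initial segment (0.32), and the neurofilament gene Nefl (-0.15). None of these passed the test.

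Genes of GABA synthesis and interneurons had a median of 0.00 over 21 members. Gad1, a GABA-synthesizing enzyme, had 0.29 ± 0.13 and Calb2, which marks calretinin interneurons, -0.43 ± 0.22. Neuropeptides had a median of 0.06 over 19 members, with Cartpt at -0.66 ± 0.24, Tac3 at 0.84 and Penk at 0.26 ± 0.12.

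Markers of cell types showed no called member. Summed glutamatergic markers lay at 2480, 3040 and 4790 CPM (lowest, median, highest) in exposed libraries against 2870, 3270 and 5030 CPM at 0 µM, with a median log2 fold change of -0.07 over 16 genes. Summed astrocyte markers lay at 4820, 5400 and 7030 CPM against 4850, 5520 and 5700 CPM, with a median of 0.03 over 21 genes. Oligodendrocyte lineage markers summed to 1410, 1610 and 1990 CPM against 1580, 1700 and 1830 CPM, with a median of -0.06 over 20 genes. The ranges of the groups overlapped for all 3 sums. The 3 tested microglial genes had a median of -0.16, and the 3 tested choroid plexus and ependymal genes 0.30. Vascular and fibroblast markers had the lowest median of the lists, -0.30 over 10 tested genes. Their smallest p was that of Lum, the collagen-associated proteoglycan lumican, with -1.72 ± 0.56 at levels of at most 0.748 CPM in exposed libraries, against 0, 1.3, 1.33, 1.69 and 0.446 CPM at 0 µM.

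Stress, detoxification and growth lists were equally near 0. Their medians were -0.06 for the unfolded protein response and ATF4 targets (26 genes), -0.08 for heat shock genes (12), -0.07 for NRF2 antioxidant targets (17), 0.01 for xenobiotic response genes (12), -0.05 for p53 and apoptosis genes (20) and -0.02 for inflammation and reactive glia genes (13). Nqo1, a quinone reductase regulated by NRF2, had -0.29, and Herpud1, of endoplasmic reticulum-associated degradation, -0.20. Sterol and fatty acid synthesis genes had -0.01 over 32 members, with Idi1 of the isoprenoid pathway at -0.28. Cell cycle genes had 0.11 over 29 members, nuclear respiratory chain genes -0.06 over 23, mitochondrial DNA transcripts 0.02 over 13 and neurotrophins with their receptors 0.01 over 10. Over the 31 lists with a tested member, the medians ran from -0.30 to 0.30, with 26 of them inside ±0.1. Each list had 0 called genes, and for 542 of the 576 listed genes tested the 95% interval lay inside ±1.

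The concentrations were then taken separately, each shared by both compounds. edgeR called 0 genes (0%) at 1, 3 and 10 µM. Genes at an unadjusted p under 0.05 numbered 503 (3.5%) at 1 µM, 654 (4.56%) at 3 µM and 1080 (7.52%) at 10 µM, and the smallest adjusted p was 1, 0.701 and 0.074. DESeq2 called 1, 0 and 19 genes at the same concentrations. At 10 µM edgeR gave 7 genes an adjusted p under 0.1 and 12 under 0.2, and these 12 were all among the 19 that DESeq2 called. They were named after their values were seen, and none of them passed the test used for the other results.

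Rgs8 (chromosome 13, 71086745 to 71141076), which speeds the switching-off of G protein signals, had the smallest p at 10 µM. Its levels at 10 µM were 66, 64.2 and 60.3 CPM with deltamethrin and 71.4, 55.3 and 55.5 CPM with cypermethrin, against 50.5, 46.2 and 44.7 CPM and 41.9 and 50.3 CPM at 0 µM. All 6 libraries at 10 µM lay above all 5 at 0 µM. This and the separations of 10 µM from 0 µM libraries given below are in genes named after their values were seen. They follow largely from that choice and add no support. The log2 fold changes were 0.14 ± 0.07 at 1 µM, 0.25 ± 0.07 at 3 µM and 0.42 ± 0.07 at 10 µM (adjusted p 0.074 in edgeR and 3.48e-04 in DESeq2). Among the fits that left out a single library, edgeR called Rgs8, Piezo2 and Sphkap only without cypermethrin 0 µM replicate 2. That fit keeps the GRC321 library that lay apart as the only cypermethrin library at 0 µM, so its p-values are not given. Without a project term the adjusted p was 0.394 for Rgs8 and 0.285 for Piezo2 (edgeR), and Sphkap was not called. Within GRC327 alone the log2 fold changes at 10 µM were 0.329 for Rgs8, 0.696 for Piezo2 and -0.291 for Sphkap, each with an adjusted p of 0.778 (edgeR). Without the cypermethrin run that lacks a 0 µM library they were 0.439, 0.901 and -0.367, with adjusted p of 0.129, 0.203 and 0.251 (edgeR).

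Piezo2 (chromosome 18, 58354648 to 58499837), a mechanically activated cation channel, had 9.4, 6.63 and 7.39 CPM with 10 µM deltamethrin and 7.78, 8.94 and 6.39 CPM with 10 µM cypermethrin. Its 0 µM levels were 3.16, 4.8 and 2.94 CPM and 3.26 and 5.45 CPM, all below those at 10 µM, and the log2 fold change was 0.95 ± 0.18 (adjusted p 0.074, edgeR). Kcnn1 (chromosome 16, 20336638 to 20348805), the small-conductance calcium-activated potassium channel that follows spikes with hyperpolarization, had 17.1, 13.4 and 11.7 CPM and 22.3, 20.6 and 16.7 CPM at 10 µM. The 0 µM libraries had 9.6, 7.7 and 10.7 CPM and 8.78 and 9.28 CPM, again without overlap, and the fold change was 0.91 ± 0.18 (adjusted p 0.084, edgeR). The alpha subunit gene of a nicotinic acetylcholine receptor, Chrna7, had 0.43 ± 0.09, and Camkk1, a kinase upstream of calcium/calmodulin-dependent kinases whose model overlaps Itgae, had 0.42 ± 0.08.

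Lower fitted levels at 10 µM were those of Neto2, Sphkap and Bhlhe22. Neto2 (chromosome 19, 22450030 to 22486532) had 86, 70.3 and 75.2 CPM with deltamethrin and 83, 64.4 and 69.6 CPM with cypermethrin, against 115, 87.6 and 87.8 CPM and 130 and 85.3 CPM at 0 µM. The ranges overlapped by less than 1 CPM, and within each project they did not overlap. Its fold change was -0.40 ± 0.08 (adjusted p 0.0771, edgeR). Sphkap, which anchors protein kinase A, had -0.41 ± 0.08 and Bhlhe22, a transcription factor gene of cortical projection neurons, -0.43 ± 0.09. The other genes of the 12 were Grasp, a scaffold of metabotropic glutamate receptors (0.78 ± 0.15, overlapping LOC103692984), the clock-controlled transcription factor gene Dbp (0.50 ± 0.11), Sst and Cyp11b3. For Cyp11b3, a member of a family of near-identical steroid hydroxylase genes between which reads are uncertain, the 6 libraries at 10 µM held 69 counts against 2 counts in the 5 libraries at 0 µM. Cyp11b3 passed the filter on low counts only through exposed libraries, where it was higher, so its counts are given as a description.

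**Figure D3:**
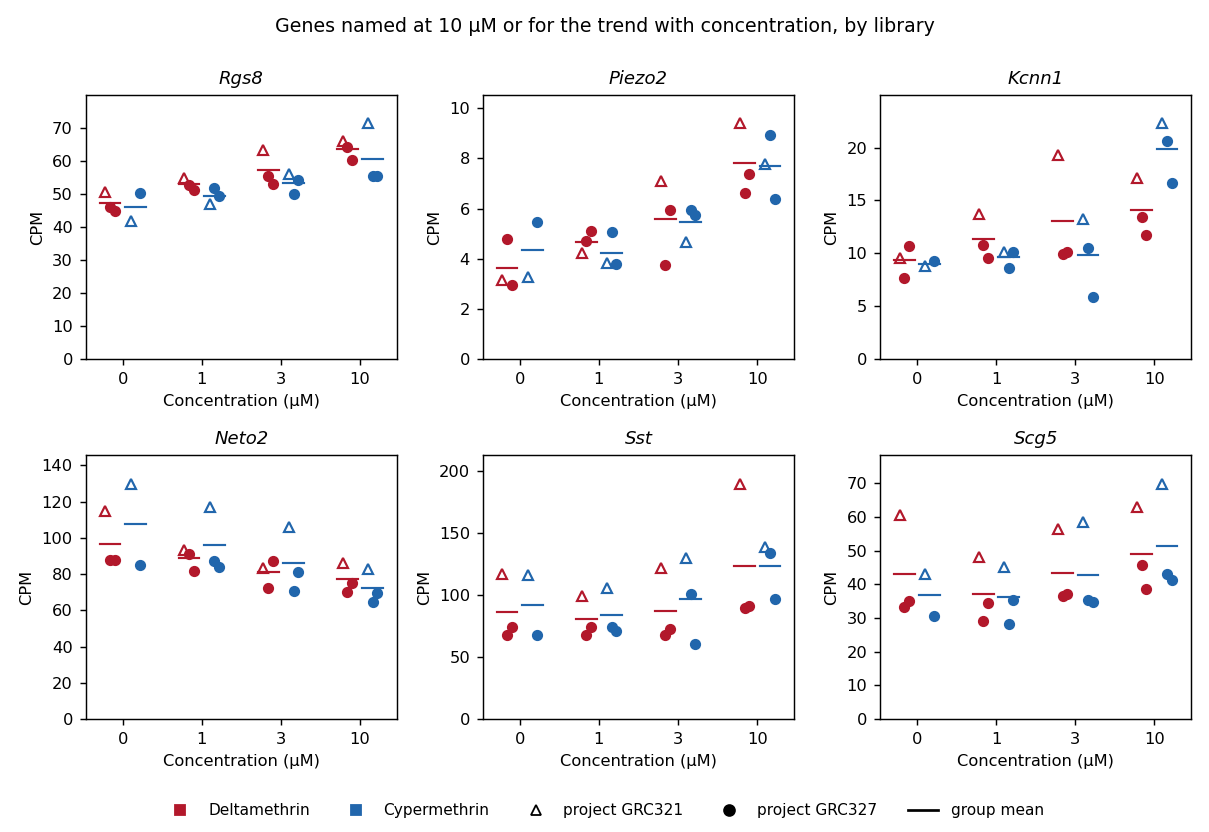
Level in CPM (linear axis from 0) of 5 genes named at 10 µM and of Scg5, by concentration in µM, with 1 point per library, compounds by colour, projects by symbol and bars at group means. The 6 libraries at 10 µM lie above all 5 at 0 µM for Rgs8, Piezo2 and Kcnn1, and for Sst and Scg5 the 2 projects lie at different levels, so that 10 µM and 0 µM overlap over both. Rgs8, Piezo2, Kcnn1, Neto2 and Sst were picked by their p at 10 µM, so a separation follows largely from that choice.

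Several gene lists had medians away from that of all genes (-0.01) at 10 µM, where no list had a called member. The lists were chosen with earlier results of these data known, so their counts at 10 µM and in the trend are descriptions and not independent tests. Delayed activity genes had medians of -0.02 at 1 µM, 0.02 at 3 µM and 0.25 at 10 µM. At 10 µM 11 of 29 had an unadjusted p under 0.05, all with higher fitted levels, beside 7.52% of all genes. Among them were Scg2, a granin of dense-core vesicles (0.59 ± 0.20), Pcsk1, a prohormone convertase (0.60 ± 0.21), Acan (0.56 ± 0.14) and Rgs2, a regulator of G protein signalling (0.54 ± 0.15). Bdnf, a neurotrophin, had 0.42 ± 0.20 and Nptx2, a pentraxin that gathers AMPA receptors at synapses, 0.32 ± 0.10. Scg2 had 163, 71.4 and 58.2 CPM with 10 µM deltamethrin and 65.6, 121 and 60.8 CPM with 10 µM cypermethrin, against 68.9, 57.6 and 53.2 CPM and 65.6 and 56 CPM at 0 µM. The 2 highest values, 163 and 121 CPM, were the GRC321 deltamethrin library and a library of the cypermethrin run without a 0 µM library. Without the first of those libraries, and likewise without the second, 7 of the 29 were under 0.05, with list medians of 0.18 and 0.17, and the count was also 7 without cypermethrin 0 µM replicate 2. Within GRC327 alone it was 6, of which 4 had higher and 2 lower fitted levels, and the median was 0.19. Immediate early genes had -0.05, -0.03 and 0.12, and 1 of 24, Egr3, had an unadjusted p under 0.05 at 10 µM (0.46 ± 0.18).

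Neuropeptides had medians of -0.04, -0.02 and 0.20 at the 3 concentrations, and at 10 µM 7 of 19 had an unadjusted p under 0.05, beside 7.52% of all genes. Sst, somatostatin, had 190, 90 and 91.6 CPM with 10 µM deltamethrin and 139, 134 and 97.3 CPM with 10 µM cypermethrin, against 117, 68.2 and 74.6 CPM and 116 and 67.6 CPM at 0 µM. Within each project the 10 µM libraries were above the unexposed ones, and the fold change was 0.53 ± 0.11 (adjusted p 0.138, edgeR). It ran from 0.446 to 0.59 when each library was left out in turn. Penk, which encodes proenkephalin, had 0.47 ± 0.12. Cartpt, which encodes the CART peptide, had -1.15 ± 0.27, with 6.3, 5.11 and 5.01 CPM with deltamethrin and 19.1, 5.43 and 5.33 CPM with cypermethrin, against 18.9, 18 and 13.1 CPM and 12.4 and 11.7 CPM at 0 µM. The cypermethrin library at 19.1 CPM was the highest of all of these, so the ranges overlapped. Without deltamethrin 10 µM replicate 1 the count of neuropeptides under 0.05 was 4 of 19, and within GRC327 alone it was 2.

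At 10 µM, beside 7.52% of all genes, several neuronal lists had members at an unadjusted p under 0.05. These were 5 of 16 glutamatergic markers, 3 of 7 NMDA receptor genes and 6 of 25 presynaptic vesicle genes. Potassium channels had 7 of 48, postsynaptic scaffold genes 1 of 20, sodium channels 2 of 16 and calcium channels 4 of 22. GABA-A receptor genes had 2 of 14, and AMPA and kainate receptor genes 2 of 13. Among GABA and interneuron genes the count was 6 of 21, a share above that of all genes and inside the range of these neuronal lists. Their median was -0.04, and it ran from -0.06 to 0.06 when each library was left out in turn and was 0.05 within GRC327 alone, so it had no stable sign. Gad1 had 0.51 ± 0.13 and Gad2 0.30 ± 0.09, the enzymes that make GABA, while Calb2 had -0.82 ± 0.24. Gad1 levels were 368, 201 and 186 CPM with deltamethrin and 218, 277 and 188 CPM with cypermethrin, against 196, 147 and 154 CPM and 209 and 146 CPM at 0 µM, and did not overlap within either project. Calb2 was lowest at 16 CPM in deltamethrin 10 µM replicate 1 and 25.3 CPM in cypermethrin 10 µM replicate 2, while the other 10 µM libraries had 48.7 to 74.3 CPM and the 0 µM libraries 75.5 to 82.6 CPM. Without the second of these libraries, or without deltamethrin 0 µM replicate 2, 3 of the 21 genes were under 0.05, and within GRC327 alone 5 were.

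Oligodendrocyte lineage markers had medians of 0.03, -0.11 and -0.18, and at 10 µM 5 of 20 had an unadjusted p under 0.05, beside 7.52% of all genes, all 5 with lower fitted levels. Mbp, which encodes myelin basic protein, had -0.51 ± 0.18 (adjusted p 0.516, edgeR). Its levels were 56, 88.1 and 87.6 CPM with 10 µM deltamethrin and 46.5, 52.3 and 81.5 CPM with 10 µM cypermethrin, against 64.2, 116 and 104 CPM and 60 and 142 CPM at 0 µM. All 10 µM libraries were below the unexposed libraries of their own project. The count was 3 without cypermethrin 0 µM replicate 2 and 8 without cypermethrin 10 µM replicate 1, and within GRC327 alone it was 5. Unfolded protein and ATF4 genes had -0.02, -0.07 and -0.17, with 5 of 26 under 0.05 at 10 µM, beside the same 7.52%.

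**Figure D4:**
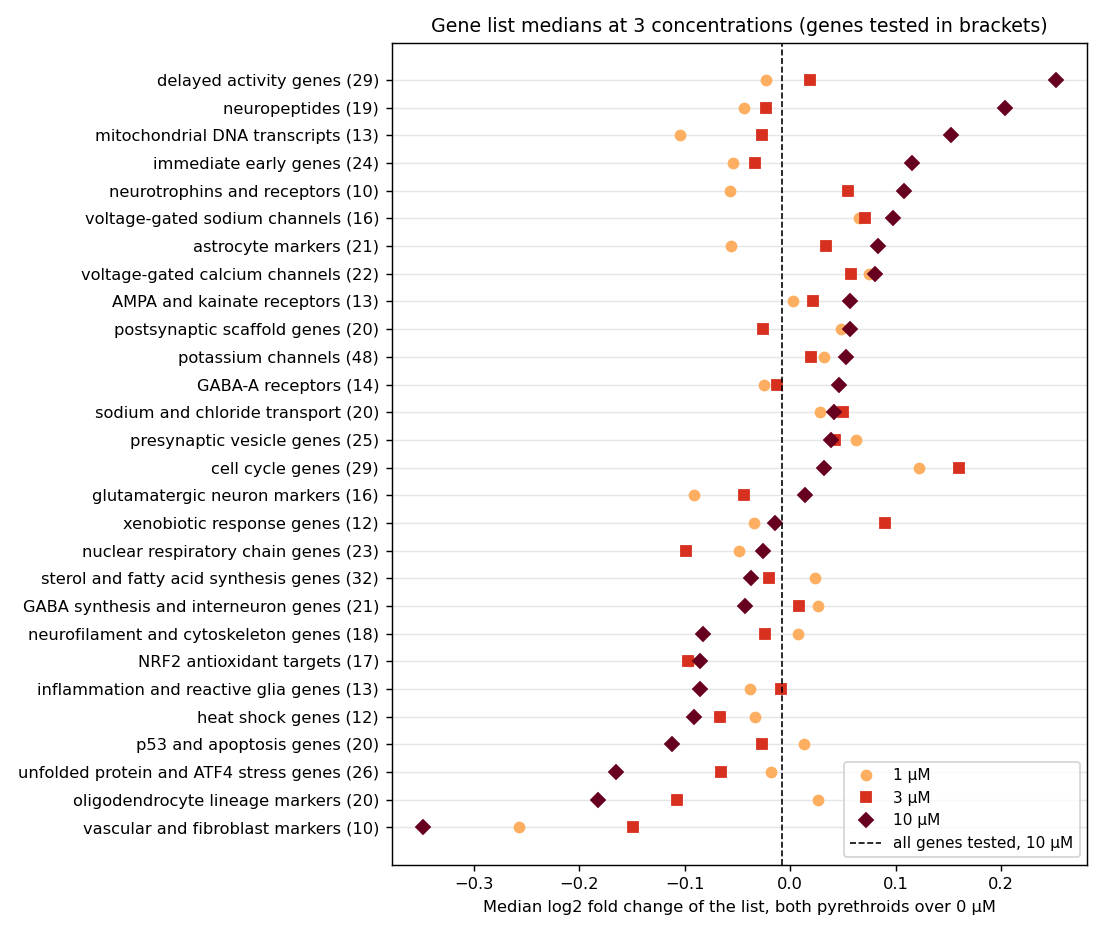
Median log2 fold change of each gene list at 1, 3 and 10 µM, both pyrethroids over 0 µM, for the lists with at least 10 tested genes (number in brackets), with the median of all genes at 10 µM as a dashed line. Delayed activity genes and neuropeptides reach 0.25 and 0.20 at 10 µM, and oligodendrocyte markers lie at -0.18. The lists were chosen with earlier results of these data known.

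A trend over 1, 3 and 10 µM was fitted on the 18 exposed libraries alone, so that the 0 µM libraries had no part in it. It called 1 of 14047 genes (0.00712%), Scg5 (chromosome 3, 105235050 to 105279463), which encodes the chaperone of a prohormone convertase in secretory granules. Its level rose by 0.22 ± 0.04 on the log2 scale per step of concentration (95% interval 0.15 to 0.29, adjusted p 0.0495, edgeR). With deltamethrin the libraries held 48.2, 29 and 34.5 CPM at 1 µM, 56.5, 36.6 and 37 CPM at 3 µM and 63, 45.8 and 38.5 CPM at 10 µM. With cypermethrin they held 45.2, 28.3 and 35.4 CPM, then 58.4, 35.5 and 34.7 CPM, then 69.9, 43 and 41.2 CPM. For both compounds, and within each project, the 10 µM libraries lay above the 1 µM ones. The 0 µM libraries, at 60.6, 33.3 and 35.2 CPM for deltamethrin and 43.2 and 30.7 CPM for cypermethrin, lay within the range of the exposed ones, and 10 µM over 0 µM was 0.36 ± 0.08 (adjusted p 0.208, edgeR). The adjusted p is close to the threshold, and the call was lost in 16 of the 18 fits that left out 1 exposed library.

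At an unadjusted p under 0.05 the trend had 737 genes (5.25%), 451 with positive and 286 with negative slopes. Among delayed activity genes there were 12 of 29, among neuropeptides 6 of 19, among oligodendrocyte markers 5 of 20, among GABA and interneuron genes 3 of 21 and among mitochondrial DNA transcripts 8 of 13. Per step, Nptx2 had 0.18 ± 0.04, Bdnf 0.35 ± 0.11, Sst 0.29 ± 0.06, Mbp -0.26 ± 0.08 and Calb2 -0.35 ± 0.11. None of these had an adjusted p under 0.05, and the 10 µM libraries are the same as in the comparison with 0 µM. All 13 mitochondrial DNA transcripts had positive slopes, and in GRC321 the mitochondrial share of counts was 3.99%, 4.67% and 6.05% with 1, 3 and 10 µM deltamethrin, and 4%, 5.06% and 5.35% with cypermethrin. At 0 µM in GRC321 the share was 4.22% for deltamethrin and 4.04% for cypermethrin. In GRC327 it was 2.24%, 2.53% and 2.82% with deltamethrin in replicate 2, and 2.53%, 2.79% and 2.94% in replicate 3. With cypermethrin it did not rise from 1 to 10 µM there, at 2.96%, 2.44% and 2.53% in replicate 2 and 2.87%, 3.03% and 2.68% in replicate 3. The count of mitochondrial transcripts under 0.05 was 0 within GRC327 alone, without deltamethrin 1 µM replicate 1 and without deltamethrin 10 µM replicate 1, 1 without cypermethrin 1 µM replicate 1, 4 without deltamethrin 1 µM replicate 2 and 5 without deltamethrin 10 µM replicate 3. Without cypermethrin 10 µM replicate 2 the counts of the other lists included 7 of 29 for delayed activity genes and 2 of 19 for neuropeptides, and the neuropeptide count was also 2 without deltamethrin 10 µM replicate 1. The count of oligodendrocyte markers was 8 without cypermethrin 10 µM replicate 1, 9 without cypermethrin 1 µM replicate 2 and 3 without cypermethrin 10 µM replicate 3. The count of GABA and interneuron genes was 6 without cypermethrin 10 µM replicate 1, 5 without deltamethrin 10 µM replicate 2, cypermethrin 10 µM replicate 3 or deltamethrin 1 µM replicate 3, and 2 without deltamethrin 10 µM replicate 1 or cypermethrin 10 µM replicate 2. Within GRC327 alone 9 of 29 delayed activity genes and 4 of 19 neuropeptides had an unadjusted p under 0.05. The part of this share in the other slopes was not tested.

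Taken singly, deltamethrin over its 0 µM libraries had 0 called genes (0%) in edgeR and in DESeq2, with 805 genes at an unadjusted p under 0.05 (5.61%) and a smallest adjusted p of 0.848. Cypermethrin had 1 called gene (0.00697%), Phyhip, and 1485 genes at an unadjusted p under 0.05 (10.3%). Cypermethrin was set against 2 libraries only. The count of called genes was 286 without its 0 µM replicate 2, which leaves the GRC321 library that lay apart as the only unexposed one, and 0 without its replicate 1. It was 5 without deltamethrin 10 µM replicate 1.

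The difference between the compounds, deltamethrin minus cypermethrin, was tested over all 3 concentrations and at each matched one. Over all concentrations 3 genes (0.0209%) passed, 2 with a higher (0.0139%) and 1 with a lower effect of deltamethrin (0.00697%), and 1446 (10.1%) had an unadjusted p under 0.05. At matched concentrations 3 pairs were compared, with p-values adjusted over all genes and the 3 pairs together, and edgeR called 0 genes (0%) at each. Genes at an unadjusted p under 0.05 numbered 1491 (10.4%) at 1 µM, 647 (4.51%) at 3 µM and 1209 (8.42%) at 10 µM, with smallest adjusted p values of 0.371, 0.142 and 0.262, and DESeq2 called 3, 1 and 4 genes. A direct difference between the exposed libraries, leaving the 0 µM libraries aside, also had 0 calls at each concentration, with a smallest adjusted p of 0.897 and with 941, 560 and 698 genes at an unadjusted p under 0.05. A p that misses the threshold does not show that the compounds act alike. The interval of the difference lay inside ±1 for 62.5%, 64.2% and 62.6% of the genes, with median lengths to either side of 0.539, 0.552 and 0.547. Differences under a doubling were thus within reach of the interval for many genes. For the genes outside these shares the interval reached a doubling or more in at least 1 direction, so larger differences were not excluded for them.

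Phyhip (chromosome 15, 52148379 to 52160295), whose product binds phytanoyl-CoA hydroxylase, rose with cypermethrin by 1.52 ± 0.25 (adjusted p 0.0387, edgeR), while its value with deltamethrin was -0.18 ± 0.18. That call was kept in 10 of the 23 fits that left out 1 library and in DESeq2, and it was lost within GRC327 alone, with the replicate block and in the fit of all 71 libraries. The difference was -1.71 ± 0.31, with an interval of -2.35 to -1.07 (adjusted p 0.0454, edgeR). At 1, 3 and 10 µM it was -1.54, -2.12 and -1.57. Exposed libraries held 9.72 to 21.4 CPM with deltamethrin and 13.1 to 25.3 CPM with cypermethrin, against 19.6, 15.8 and 18.3 CPM at deltamethrin 0 µM and 7.88 and 5.53 CPM at cypermethrin 0 µM. The exposed ranges of the compounds overlapped, and the 2 cypermethrin 0 µM libraries were the lowest of all 23.

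LOC103693999 (chromosome 16, 81549204 to 81587081) had a difference of 2.04 ± 0.35 (interval 1.31 to 2.76, adjusted p 0.0454, edgeR), from 0.70 ± 0.25 with deltamethrin and -1.33 ± 0.25 with cypermethrin. Its exposed levels were 8.98 to 18.3 CPM with deltamethrin and 6.71 to 17.5 CPM with cypermethrin, against 7.64, 8.41 and 5.2 CPM and 28 and 23.3 CPM at 0 µM. Here the cypermethrin 0 µM libraries were the 2 highest of the 23, and the exposed ranges again overlapped. For both genes the 0 µM libraries of the compounds did not overlap while their exposed libraries did.

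AABR07046778.1 (chromosome 5, 6373583 to 6373850), whose difference was 5.90 ± 1.07 (interval 3.70 to 8.10, adjusted p 0.0454, edgeR), was present mainly in GRC321. Its levels there were 18.2, 53.4 and 80.9 CPM with 1, 3 and 10 µM deltamethrin and 9.95, 0.455 and 1.43 CPM with cypermethrin, against 9.93 CPM at deltamethrin and 91.9 CPM at cypermethrin 0 µM. In GRC327 it was at most 3.22 CPM in every library. Its highest levels were in the libraries that lay together on the first component, deltamethrin 10 µM and cypermethrin 0 µM replicate 1. All 3 calls were lost without cypermethrin 0 µM replicate 1, when the smallest adjusted p of the difference was 0.989. Of the 23 fits that left out 1 library, the call of the difference was kept in 6 for Phyhip, 6 for AABR07046778.1 and 9 for LOC103693999. DESeq2 called Phyhip and LOC103693999 but not AABR07046778.1, and the fit of all 71 libraries called only AABR07046778.1. None of the 3 differences was called within GRC327 alone or with the replicate block.

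Other genes with the smallest p at matched concentrations were high or low in the same libraries. AC144674.1 (overlapping Suco) had 2.64 CPM in deltamethrin 10 µM replicate 1 and 2.14 CPM in cypermethrin 0 µM replicate 1 and at most 0.829 CPM elsewhere. LOC100911674 and LOC108350501 were at 0 in both of those libraries, against 3.5 and 5.96 CPM in cypermethrin 10 µM replicate 1 and 4.26 and 6.44 CPM in deltamethrin 0 µM replicate 1. AC093965.1 (overlapping Anxa6) had 8.65 and 9.98 CPM in the cypermethrin 3 and 10 µM libraries of GRC321, against 0.113 CPM at cypermethrin 0 µM in that project. Zfp236 and Sltm, named at 1 µM, had differences of 0.86 (interval 0.48 to 1.24) and 0.67 (0.35 to 0.99).

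**Figure D5:**
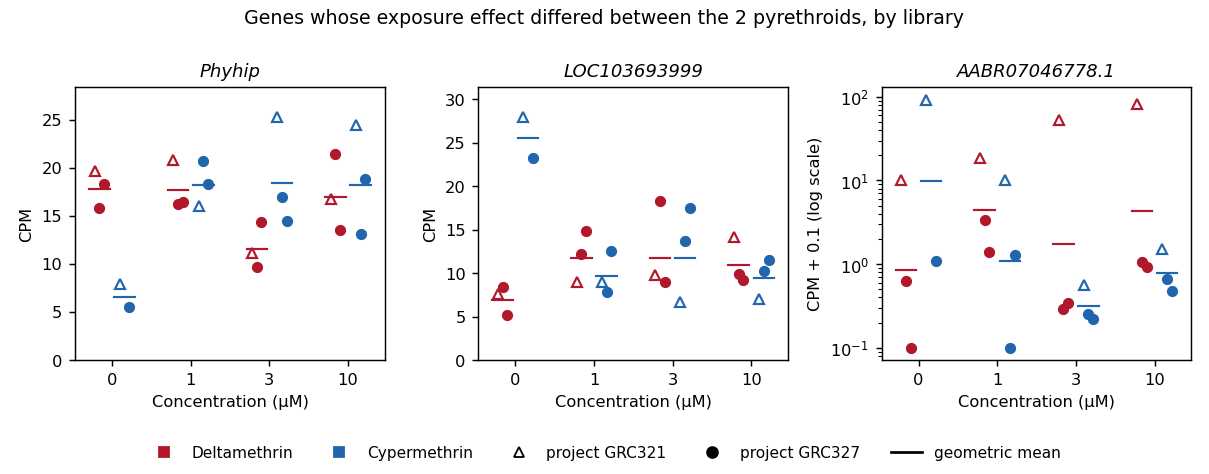
Level of the 3 genes with a called difference between the compounds, by concentration in µM, with 1 point per library, compounds by colour, projects by symbol and bars at geometric means. The first 2 panels are in CPM on a linear axis from 0, and the third in CPM + 0.1 on a log axis. The 2 cypermethrin 0 µM libraries are the lowest for Phyhip and the highest for LOC103693999.

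Differences between the compounds were also taken for genes named at 10 µM, and none passed the test. At 10 µM the difference was 0.03 (interval -0.29 to 0.35) for Rgs8, 0.27 (-0.52 to 1.05) for Piezo2, 0.18 (-0.16 to 0.52) for Neto2 and -0.12 (-0.61 to 0.38) for Sst. For Kcnn1 it was -0.59 (-1.25 to 0.06) and for Scg5 -0.35 (-0.68 to -0.01). Cartpt had a difference of -1.28 (-2.27 to -0.29) and Egr3 of -1.01 (-1.61 to -0.41), the second with an adjusted p of 0.626 in edgeR, and the intervals of Scg5, Cartpt and Egr3, unadjusted for the number of genes, did not hold 0. Egr3, an immediate early gene, had 69.2, 91.7 and 82.5 CPM with 10 µM deltamethrin and 156, 142 and 104 CPM with 10 µM cypermethrin, against 88.4, 73.9 and 84.9 CPM and 56.7 and 77.1 CPM at 0 µM. All 3 cypermethrin libraries were above all 3 deltamethrin libraries at that concentration, and the difference did not pass the test.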

How the data were processed

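Gene-level RNA-seq values of 23 libraries were used. The authors deposited 1 table of expected counts and 1 of CPM (counts scaled by the authors to a common library total), made with the tools STAR and Partek, per the submitters' processing notes. Their versions, the genome build and the use of strand are not given in the sources used here. Coordinates are therefore those of the deposited table, and overlapping gene models are named beside some genes. Overlaps not named there are those of Tpt1 with AABR07018438.2, Cacna1h with Tpsg1, Tac3 with LOC100365958, Idi1 with Wdr37 and Has3 with Chtf8. Of the deposited expected counts, 20.6% were not whole (tolerance 1e-06), and all were rounded to whole numbers. Genes were kept with filterByExpr (minimum count 10), which left 14357 of 19771. They were fitted with edgeR 4.0.16 (R 4.3.3), TMM scaling and the quasi-likelihood test, with terms for exposure, compound and project. P-values were adjusted by Benjamini-Hochberg over all genes, and over all genes and 3 pairs for matched concentrations, at a threshold of 0.05. Fold changes are on the log2 scale, exposed over 0 µM, with 95% intervals. Further fits had an exposure term for each compound, for each concentration, or for each compound at each concentration (matched differences), and the trend came from the exposed libraries with evenly spaced steps. The printed levels are CPM from the rounded counts and TMM scaling.

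DESeq2 1.42.0 and limma 3.58.1 on log2 of the deposited CPM with a pseudocount of 0.5 or 0.1 were alternatives, as were other scalings, filters, project terms and libraries left out. The edgeR fit was tested on simulated data. The compounds pooled and the gene lists were chosen with earlier results of these data known. Named genes were the called ones or, where fewer than 6 were called, the 10 with the smallest p for the pooled effect; up to 4 members of each list with the smallest pooled p; and the called genes, or the 4 with the smallest p, of the differences and the trend. Others, among them the list members described for 10 µM and the trend and the sodium channel subunits, were named after their values were seen. A few genes that the rule names are not reported here. For the replicate block, runs of consecutive sample numbers in the titles stood as blocks. Deviations from a fit of group and project had a median correlation of 0.0333 within a run (33 pairs) and -0.12 between runs of the same project (100 pairs). With 2 to 3 libraries per group, such a fit itself pushes the deviations of replicates apart, and replicates lie in different runs. The correlations therefore cannot show whether the runs pair the libraries, and the block was used only as an alternative.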

Additional observations from a re-analysis of the deposited data

Results flagged for a closer look

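For 3 genes the effect of deltamethrin differed from that of cypermethrin by a test of the difference itself, over all genes and concentrations. The difference, deltamethrin minus cypermethrin on the log2 scale, was -1.71 for Phyhip, 2.04 for LOC103693999 and 5.90 for AABR07046778.1, each with an adjusted p of 0.0454 in edgeR. All 3 calls were lost without cypermethrin 0 µM replicate 1 (smallest adjusted p 0.989), and of the 23 fits that left out 1 library they were kept in 6, 9 and 6, in the same order of genes. Phyhip and LOC103693999 had exposed levels that overlapped between the compounds and 0 µM levels that did not, from 3 deltamethrin and 2 cypermethrin libraries. AABR07046778.1 was at most 3.22 CPM in GRC327. No group of replicates held 4 or more libraries, so single libraries were not tested as outliers.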

How the results depend on the processing

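Across the alternatives run, the pooled count of called genes stayed at 0, leaving out each library included, except with all 16 libraries at 0 µM of the 6 compounds as controls (1, Smad3, adjusted p 0.00947). Deltamethrin alone stayed at 0 throughout. Without a filter on low counts the counts were 3 for cypermethrin, 2 and 1 for the difference at 3 and 10 µM and 0 for the trend. With a minimum count of 50 there was 1 at 10 µM (Rgs8). With DESeq2 they were 3 for cypermethrin, 4 for the difference over all concentrations (Phyhip, LOC103693999, Sltm and Tmco3), 3, 1 and 4 for the difference at 1, 3 and 10 µM, 1 and 19 at 1 and 10 µM over 0 µM, and 13 for the trend. Cypermethrin, the difference over all concentrations and the trend had 0 each without a project term, within GRC327 alone and without the cypermethrin run that lacks a 0 µM library (chosen after seeing the data). The trend had 0 with DESeq2 size factors and with a project term per compound. With the replicate block the counts were 0 for pooled exposure, cypermethrin and the difference and 6 for the trend, and no other count of called genes changed. Under the block 8 delayed activity genes, 8 GABA and interneuron genes and 6 neuropeptides had an unadjusted p under 0.05 at 10 µM, and 5 GABA and interneuron genes in the trend. Without a project term those at 10 µM were 5 delayed activity genes, 3 GABA and interneuron genes, 3 neuropeptides and 2 oligodendrocyte markers. The fit of all 71 libraries gave 1 for cypermethrin and 1 for the difference (AABR07046778.1 in both) and 1 at 10 µM. The gene at 10 µM was Cyp11b3 and not Rgs8, whose adjusted p in that fit was 0.161 (edgeR). For the trend that fit gave 1, which was Has3 and not Scg5. A trend that included 0 µM, also chosen later, gave 7, and Scg5 was not among them. Of the 11 alternatives other than single libraries left out, 3 kept the call of Scg5. Leaving out each library gave 0 to 286 for cypermethrin, 0 to 3 for the difference, 0 to 1 for the trend and 0 to 3 at 10 µM. The cause of these shifts was not tested. None of the gene fold changes recomputed under these alternatives changed direction, whereas the median of GABA and interneuron genes at 10 µM did, with -0.0596 to 0.0634 when a library was left out and -0.0498 to 0.0489 under the other alternatives.

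At this depth the median half-width of the 95% interval was 0.228 for the pooled effect and 0.456 for the difference between the compounds, on the log2 scale. Cypermethrin and the difference rest on 2 cypermethrin libraries at 0 µM, 1 in each project.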

Other observations

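A single library of 0.3 µM deltamethrin, in project GRC321, had no counterpart for cypermethrin and was added to the exposed libraries only as an alternative, in which the pooled count of called genes stayed at 0. Levels here were scaled with that library included. Of the genes described at 10 µM, it held 55.8 CPM of Rgs8, 5.09 CPM of Piezo2, 14.2 CPM of Kcnn1, 110 CPM of Neto2 and 116 CPM of Sst, against 50.3, 3.15, 9.57, 115 and 117 CPM in the deltamethrin 0 µM library of the same project. For Scg5 it held 56 CPM against 60.3 CPM. Of the genes with the smallest pooled p, it held 2.55 CPM of Azin2 and 40.8 CPM of Llgl1, against 1.96 and 33.8 CPM at 0 µM. There is 1 library on each side, so these values have no replicate check.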
